A study of Mus musculus with 2 samples.

Results

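The genes described here encode the nuclear-made subunits of respiratory complex III, cytochrome c, complex IV and ATP synthase, the enzymes of the inner mitochondrial membrane that pass electrons to oxygen and make ATP. They were chosen by name: every gene with a read in both count tables whose symbol starts with Uqcr, Atp5, Cox4, Cox5, Cox6, Cox7 or Cox8, or is Cyc1 or Cycs. This gave 41 genes of the 14787 annotated genes with reads in both tables. They carry 40 symbols, since the annotation gives Atp5o 2 identifiers. By role, 10 belong to complex III and cytochrome c, 13 to complex IV, 5 to the F1 head and central stalk of ATP synthase, 3 to its c-ring, and 10 to its peripheral stalk and membrane part.

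The material was hippocampus (labelled as a layer of it) of female B6CASTF1/J mice, hybrids of C57BL/6J with CAST/EiJ, aged 2 months and obtained from The Jackson Laboratory. No genotype change or treatment is named. There is 1 group of 2 libraries, each made from 2 µg of RNA and read as long-read cDNA sequences, so nothing could be compared between conditions. The labels number the libraries as biological replicates of separate tissue samples but give both the same donor identifier. Whether they came from separate animals is thus not plain, and differences between these 2 libraries may be technical. The p-values set such differences against read-counting error alone and measure no spread between animals. In such bulk tissue, fewer cells of a type and less RNA per cell cannot be told apart.

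Complex III takes electrons from ubiquinol and hands them to cytochrome c, a small soluble heme protein. Complex IV takes them from cytochrome c and reduces oxygen to water, and both complexes pump protons. ATP synthase lets the protons return through its c-ring, whose turning drives the catalytic head. Neurons depend on this route for most of their ATP, and cytochrome b of complex III, the catalytic core of complex IV and membrane subunits of ATP synthase are encoded in mitochondrial DNA rather than by the genes described here.

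The tables held 836240 reads in replicate 1 and 752291 in replicate 2, of which 9644 and 6799 lay on spike-in RNAs. Levels are in CPM, a gene's share of the non-spike-in reads scaled to 1000000. A single read equalled 1.21 CPM in the first library and 1.34 CPM in the second, so a gene with no read could still lie at up to 3.63 or 4.02 CPM. They are not divided by transcript length, because each long read counts 1 cDNA copy. All 5 neuronal markers tested were detected at a median of 1193 CPM, and the 5 markers of hippocampal fields at 139 CPM. Other cell types were present too. The median was 533 CPM for astrocyte markers, 378 CPM for oligodendrocyte, 44.2 CPM for microglia and 11.5 CPM for endothelial markers. Muscle markers had a median of 3.09 CPM. The summed level of 5 choroid plexus markers was 339 CPM in replicate 1 and 185 in replicate 2, nearly all of it Ttr, while Aqp1 and Otx2 had no read. That of 5 red blood cell markers was 256 and 451 CPM.

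The 41 genes together took 1.55% of non-spike-in reads in replicate 1 and 1.38% in replicate 2. Their median level was 263 CPM in replicate 1 and 217 CPM in replicate 2, against 19.4 and 20.1 CPM over all genes in both tables. By mean level, 34 of the 41 reached 100 CPM, beside 1929 of all 14787 genes. Of these 34, 7 stood at 500 CPM or more, 19 between 200 and 500 CPM and 8 between 100 and 200 CPM. The remaining 7 ranged from 94.7 CPM (Atp5g2) down to Cox6a2, with 4 reads in replicate 1 and 1 in replicate 2.

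**Figure D1:**
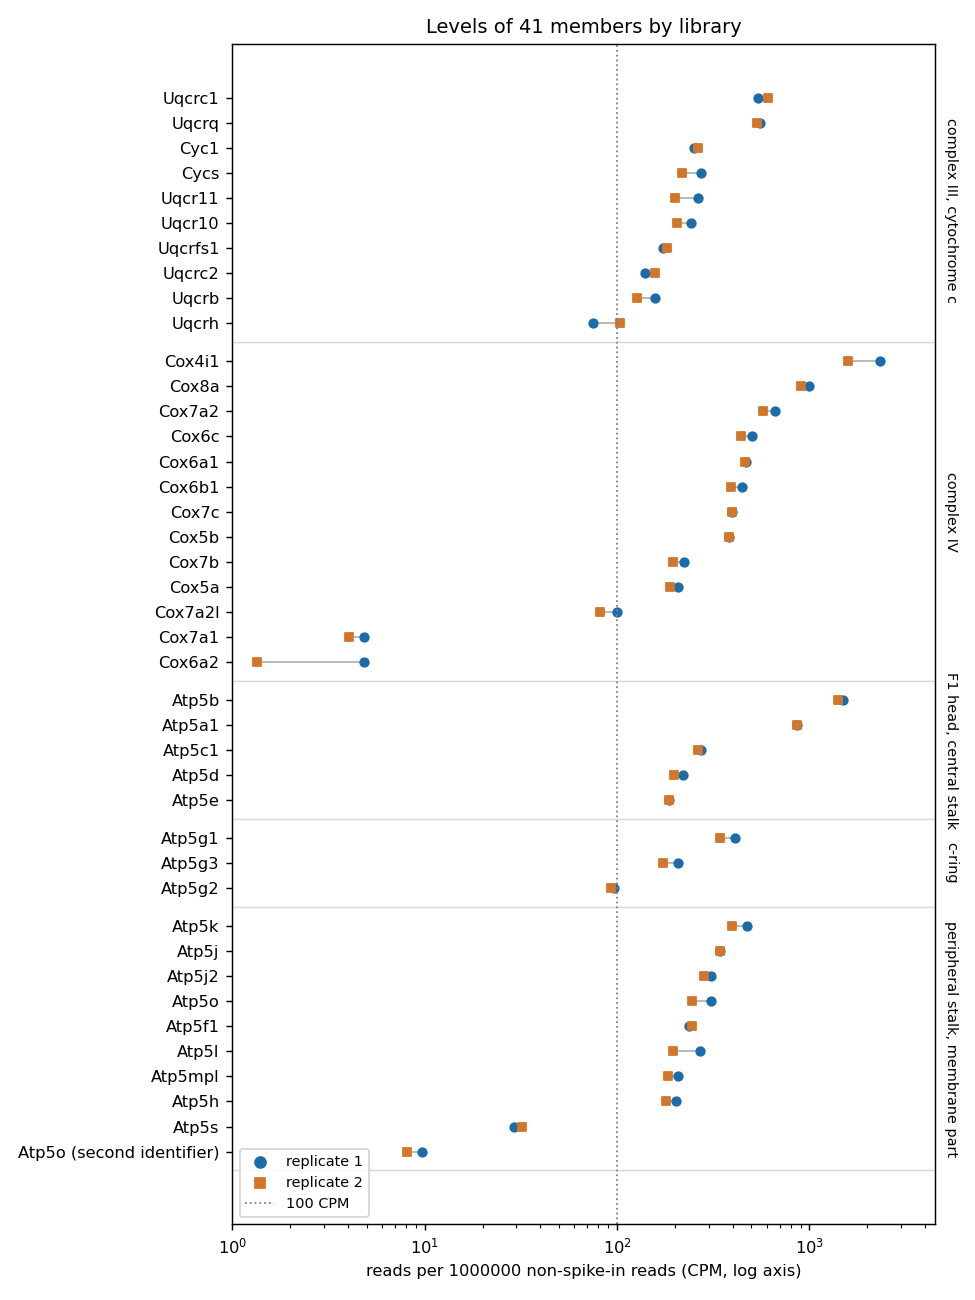
Level of each of the 41 genes in replicate 1 (circles) and replicate 2 (squares) in CPM on a log axis, grouped by enzyme part, with a dotted line at 100 CPM. Points left of the line include Cox7a1 and Cox6a2 at under 5 CPM, while Cox4i1 lies farthest right at 2336 and 1580 CPM.

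In complex III, the core protein gene Uqcrc1 and the small-subunit gene Uqcrq were the most abundant. Uqcrc1 stood at 541 CPM in replicate 1 and 610 CPM in replicate 2, a mean of 576 ± 49.2 CPM (SD, n = 2, as for all ± values here). Uqcrq, which encodes a small subunit named for ubiquinone binding, stood at 556 and 534 CPM. The partner core protein gene Uqcrc2 was several times lower, at 139 and 158 CPM. The electron-carrying subunits lay between: Cyc1, cytochrome c1, was at 252 and 263 CPM, and Uqcrfs1, the Rieske iron-sulfur protein, at 173 and 181 CPM.

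The remaining small subunits of complex III covered a wide range. Uqcr11 was at 263 and 199.9 CPM, Uqcr10 at 243 and 204 CPM, and Uqcrb at 157 and 127 CPM. Uqcrh, the hinge protein that helps cytochrome c1 meet cytochrome c, was the lowest at 75.0 and 103 CPM. Cycs, the somatic cytochrome c itself, stood at 273 and 217 CPM. No read was found for its testis counterpart Cyct.

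Complex IV held the highest and the lowest members. Cox4i1, the largest nuclear-encoded subunit and a site where ATP regulates the enzyme, stood at 2336 CPM in replicate 1 and 1580 CPM in replicate 2, a mean of 1958 ± 535 CPM. Cox8a, a small subunit that spans the membrane, followed at 999 and 900 CPM, and Cox7a2 at 667 and 575 CPM. These 3 genes lay above every other member of complex IV in both libraries.

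A middle group of complex IV subunits was close together. Cox6c stood at 502 and 443 CPM, Cox6a1 at 466 and 465 CPM, and Cox6b1, which lies at the dimer interface near the cytochrome c site, at 444 and 392 CPM. Cox7c was at 394 CPM in each library and Cox5b, the zinc-binding subunit, at 384 and 382 CPM. Cox7b was lower at 224 and 195 CPM, as was Cox5a at 207 and 189 CPM. Cox7a2l, related to Cox7a2 and known for joining complexes III and IV into supercomplexes, was at 100.4 and 81.8 CPM. Ndufa4, a complex IV subunit that the choice by name leaves out, stood at 1470 ± 88.9 CPM, between Cox4i1 and Cox8a.

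Several complex IV subunits exist as a widely expressed gene and a counterpart of muscle, lung or testis, and in each such family the widely expressed gene held nearly all reads. Cox7a2 had 551 of the 555 reads it shared with the muscle gene Cox7a1 in replicate 1 and 429 of 432 in replicate 2, a share of 99.3% ± 0.019. Cox6a1 had 385 of 389 and 347 of 348 reads beside the muscle gene Cox6a2, a share of 99.3% ± 0.52. Cox4i1 lost 1 read of 1932 to the lung-enriched Cox4i2, and Cox8a 1 read of 827 to the muscle gene Cox8b, both in replicate 1. No read at all was found for Cox6b2, Cox7b2 and Cox8c, known as testis forms. At this depth the reads of Cox7a1 (4 and 3) and Cox6a2 (4 and 1) do not tell low expression from stray reads.

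In the head of ATP synthase the 2 subunits that alternate around its ring were far above the stalk subunits. Atp5b, the catalytic beta subunit, stood at 1492 and 1407 CPM, and Atp5a1, the alpha subunit, at 864 and 861 CPM. Atp5c1, the gamma subunit that turns inside the head, was at 272 and 264 CPM, Atp5d (delta) at 220 and 197 CPM, and Atp5e (epsilon) at 186 CPM in each library. The 5 genes kept this order in both libraries.

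The c-ring, built from copies of 1 identical mature protein, is encoded by 3 genes. Atp5g1 supplied most of their reads, 57.6% in replicate 1 (exact 95% interval 53.5 to 61.6%) and 56.5% in replicate 2 (51.8 to 61.1%). Atp5g3 supplied 28.9% and 28.4%, and Atp5g2 13.5% and 15.2%. The intervals of the 3 genes did not overlap in either library. How the authors assigned reads to these similar genes is not given. Their mature proteins are the same but the coding bases are not, as the last 90 show (mm10 minus strand, from GENCODE M21; Atp5g1 at chr11:96073104-96073193, Atp5g2 at chr15:102663014-102663103, Atp5g3 at chr2:73908593-73908682; capitals mark the 24 positions where the 3 do not all share a base):
Atp5g1: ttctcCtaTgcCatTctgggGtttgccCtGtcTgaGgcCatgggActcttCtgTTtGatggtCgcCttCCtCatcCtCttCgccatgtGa
Atp5g2: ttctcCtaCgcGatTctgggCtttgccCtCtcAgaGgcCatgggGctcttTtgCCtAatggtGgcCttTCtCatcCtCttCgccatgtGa
Atp5g3: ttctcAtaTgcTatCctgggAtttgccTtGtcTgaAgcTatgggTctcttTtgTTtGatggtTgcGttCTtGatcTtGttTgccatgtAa

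The share of Atp5g2 depended on which reads were counted. It fell to 5.35% when genomic models (reads over the gene that match no spliced form) were left out, and that of Atp5g1 came to 62.9%. Of its reads, 53 of 80 in replicate 1 and 46 of 69 in replicate 2 formed the same unspliced model of 151 bases. It lies at chr15:102662864-102663014, the end of the last exon of Atp5g2-202, and is untranslated apart from the closing base of the stop codon.

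In the peripheral stalk and membrane part, every tested member except Atp5s lay between 191 and 435 CPM on average. Atp5k (subunit e) stood at 472 and 398 CPM, Atp5j (coupling factor 6) at 344 and 345 CPM, and Atp5j2 (subunit f) at 307 and 282 CPM. Atp5o, the protein that ties the stalk to the head, was at 307 and 244 CPM, and Atp5l (subunit g) at 269 and 196 CPM. The stator subunit genes Atp5f1 (subunit b) and Atp5h (subunit d) stood at 236 and 247 CPM and at 203 and 179.7 CPM, and Atp5mpl, a small proteolipid, at 208 and 184 CPM. The median of all members' mean levels was 241 CPM.

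Atp5s, a factor found with the enzyme but not among its core subunits, was far lower at 29.0 and 32.2 CPM. The second identifier of Atp5o had 8 and 6 reads, all in genomic models, and overlaps the first, so the split of reads between the identifiers is uncertain. Usmg5, a membrane-part subunit without an Atp5 name here, stood at 410 ± 2.91 CPM. Of the 54 annotated genes whose names match, 3 had reads in replicate 1 alone (Atp5l2-ps with 2, Cox4i2 and Cox8b with 1 each), and 10 had none, of which 7 are pseudogenes.

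Genes that act with these enzymes were mostly lower. The 6 mitochondrially encoded partners had a median of 112 CPM, with mt-Co1 at 394 ± 17.1 CPM and mt-Cytb at 202 ± 3.97 CPM. The other complex IV genes among them were lower, mt-Co3 at 97.6 ± 9.07 CPM and mt-Co2 at 58.1 ± 6.94 CPM. How fully the libraries and models captured mitochondrial RNAs was not tested, so their levels may not compare with those of nuclear genes. Of the partners in ATP synthase, mt-Atp6 stood at 126 ± 13.3 CPM and mt-Atp8, with 3 and 2 reads, at 3.16 ± 0.67 CPM. How reads were divided between mt-Atp6 and mt-Atp8 is not given, so the level of mt-Atp8 alone is uncertain. The 7 assembly factors of complex III had a median of 38.8 CPM, the 25 of complex IV 26.2 CPM, and the 6 of ATP synthase 40.4 CPM. Among the last, Atpif1, the inhibitor of the ATPase, reached 312 ± 46.5 CPM. The 4 subunits of complex II stood at a median of 177 CPM and 9 regulators of respiratory genes at 18.5 CPM, with the nuclear receptor Esrra at 280 ± 45.2 CPM. None of their tested genes passed, at any fold, the exact binomial test used for the members.

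How the reads cover each gene was examined next. TALON, the program that built the transcript models, sorts reads into annotated models and unannotated ones with a new splice site or combination of sites. Other reads go into an incomplete splice match (a contiguous part of an annotated chain of introns) or a genomic model. The first kinds together, called full-splice reads here, made up 87.0% of the members' reads in replicate 1 and 86.0% in replicate 2, against 77.6% and 77.0% over all genes. Such reads need not reach the first exon of the gene. Of the members' 12845 and 10320 reads, 1410 and 821 were counted as full-splice on Cox4i1-204. Partial reads of the coding transcript of Cox4i1 cannot be told apart from these, as described below. The difference from all genes thus depends on how the reads of this gene are classed. Incomplete matches made up 11.3% and 9.80%, and genomic models 1.78% and 4.17%.

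A stricter measure, chosen after the data were seen, is the share of a gene's reads that hold exactly the introns between the start and stop codons of its reference coding transcript. Over the 38 members with at least 20 reads per library and a coding intron its median was 92.0%, against 65.7% over the 5623 genes that could be measured. In 29 of the 38 it was 80% or more in each library. The share moved with transcript length. Among 89 genes with reference transcripts under 600 bases the median was 91.0% (95.8% for the 13 members among them), and among 4056 of 2000 bases or more it was 59.4% (91.7% for 3 members). Across genes, which are not independent replicates, Spearman's rho of the share with transcript length was -0.33 over the 38 members and -0.38 over all 5623.

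**Figure D2:**
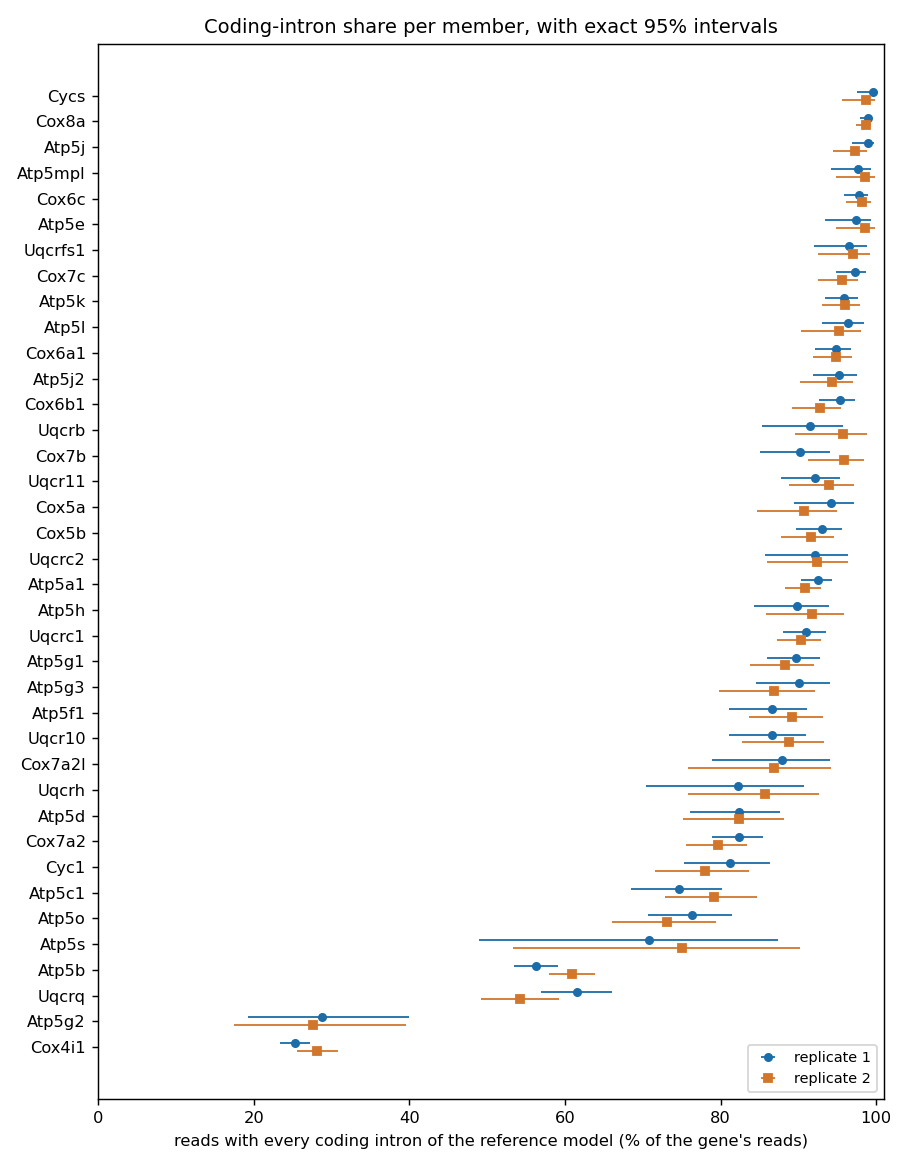
Share of each member's reads, in percent, that hold every coding intron of the reference transcript and no other intron in the coding part, with exact 95% Clopper-Pearson intervals, replicate 1 as circles and replicate 2 as squares. Cox4i1 and Atp5g2 lie under 30% in both libraries, Uqcrq and Atp5b between 54.3% and 61.5%, and 29 of the 38 genes at 80% or more in each library.

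Cox4i1 was the clearest exception. Of its reads, 487 of 1931 in replicate 1 (25.2%, exact interval 23.3 to 27.2%) and 331 of 1178 in replicate 2 (28.1%, 25.5 to 30.8%) held all 3 coding introns. Most of the rest, 1410 and 821 reads, were assigned to Cox4i1-204, an annotated retained-intron transcript of 3 exons on chr8:120672590-120674113 that has no start codon in the annotation. The coding transcript Cox4i1-201 (5 exons, chr8:120668222-120674207) received 478 and 324 reads. The 2 introns of Cox4i1-204 are also the last 2 of Cox4i1-201. The files give annotated models their annotated ends rather than the ends of the reads, so reads that began inside the third exon of Cox4i1-201 and reads of Cox4i1-204 cannot be told apart.

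The majority of Cox4i1 reads lacked both the first and the second exon of the coding transcript. The second holds the start codon (capitals) and the first coding bases, at chr8:120669310-120669382 on the plus strand (mm10, GENCODE M21):
Cox4i1 coding part of exon 2: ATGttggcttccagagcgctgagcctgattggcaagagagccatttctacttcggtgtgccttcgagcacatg

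Counting complete coding chains alone changed the order of the members. Cox4i1 moved from first place by all reads to the fifth by mean level, 517 ± 103 CPM, with 589 CPM in replicate 1 and 444 CPM in replicate 2. Its place differed between the libraries: Uqcrc1 and Cox7a2 lay below it in replicate 1 (492 and 549 CPM) and above it in replicate 2 (551 and 459 CPM). Cox8a led with a mean of 938 ± 71.0 CPM, followed by Atp5b with 848 ± 12.4 CPM, Atp5a1 with 791 ± 12.5 CPM and Uqcrc1 with 522 ± 41.7 CPM. The number of members at 100 CPM or more stayed at 34.

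Atp5b also carried many partial reads, of another shape. A 2-exon model made of its last intron alone (model start at chr10:128088957 in replicate 1, end at chr10:128090272) took 453 reads in replicate 1 and 329 in replicate 2. That is 36.7% and 31.4% of its full-splice and incomplete reads together. All coding introns were present in 56.3% and 60.9% of its reads. Atp5a1, the partner subunit with a longer reference transcript and 11 introns, held them in 92.6% and 90.8%.

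Atp5f1 had almost no read on an annotated model, yet most of its reads were complete over the coding part. Its leading chain, classed as incomplete, took 169 of 195 reads in replicate 1 and 164 of 184 in replicate 2 and holds all 6 coding introns and the start codon. The models of this chain start at chr3:105959246 in replicate 1 and chr3:105959276 in replicate 2, close to the RefSeq start of the gene at chr3:105959263 (GRCm38.p6, where it is named Atp5pb). The annotated transcript Atp5f1-201 has an additional first exon of 174 bases at chr3:105959926-105960099, which these reads lack. Its full-splice reads alone came to 2.49 CPM, against 241 CPM for all its reads over the same total.

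Atp5j was similar. Its leading chain was also an incomplete match, with 184 of 284 reads in replicate 1 and 167 of 257 in replicate 2. These models start at chr16:84834832, inside the second exon of Atp5j-201, and 98.9% and 97.3% of the gene's reads held both coding introns. Its full-splice reads alone came to 105 CPM, against 344 CPM for all its reads. Atp5j lies head to head with Gabpa, which encodes a DNA-binding subunit of a regulator of respiratory genes and stood at 17.2 ± 2.16 CPM. A RefSeq start of Atp5j (chr16:84834976, GRCm38.p6) lies 148 bases from that of Gabpa on the other strand. The stretch between the 5′ end of the second exon of Atp5j-201 and Gabpa (chr16:84834984-84835123, minus strand), which is within the first intron of Atp5j-201, holds the motifs GATGGCG and CCGGAAG, shown in capitals:
Between Gabpa and Atp5j: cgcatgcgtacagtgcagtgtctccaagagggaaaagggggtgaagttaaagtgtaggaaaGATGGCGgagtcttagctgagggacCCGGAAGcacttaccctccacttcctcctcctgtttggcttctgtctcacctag

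To describe the promoters, 4 motif cores were searched on both strands of RefSeq promoter windows of 300 bases, 250 before to 50 after each start. Windows were found for 31 of the members, 34 windows in all, and were set beside 32817 windows of all genes. CCGGAAG, a core of ETS factors such as GABPA, was in 10 of 34 member windows (29.4%, against 8.86% of all). TGCGCA, a core of NRF1, was in 6 (17.6%, against 7.75%). GATGGCG, a core of YY1, and AAGGTCA, a core of ERR receptors, were each in 4 (11.8%, against 3.49% and 4.72%). Cox6a1 held 3 of the motifs, as did Atp5l. CCGGAAG and AAGGTCA can share the letters AAG, but in Atp5e, Atp5k and Atp5l, which held both, the matches did not overlap. These are matches of letters in a window and not measured binding.

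In most members a single splice form held nearly all full-splice reads. Of 36 members with 20 or more such reads per library, 26 had a leading isoform at 90% or more in each, beside 32.8% of the 4819 genes that could be measured. The median leading share was 96.5%, against 84.2% for all genes. The leading share was not compared by transcript length or number of introns. Of the 38 members with a coding-intron share, 3 had reference transcripts of 2000 bases or more, against 4056 of 5623 genes. The 5 members with most full-splice reads after Cox4i1 show the pattern: Cox8a-201 held 100% in each library, Atp5b-201 97.5% and 97.4%, Atp5a1-201 98.4% and 99.1%, Cox7a2-201 99.1% and 98.8%, and Uqcrc1-201 93.8% and 95.1%. Uqcrb and Uqcrfs1 also had 1 form alone.

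More than 1 isoform at 10% or more in each library was found in 5 of the 36 members, 13.9%, against 1445 of the 4819 genes. These were Cox4i1, described already, Cox6c, Atp5g1, Atp5g3 and Atp5j. In all but Cox4i1 the splicing of the alternatives differs before the start codon and leaves the coding part as it is. Atp5g1-201 and Atp5g1-202 also differ in their annotated last exons, of 4367 and 229 bases. Isoforms were joined by introns, so differences in the ends were not compared.

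**Figure D3:**
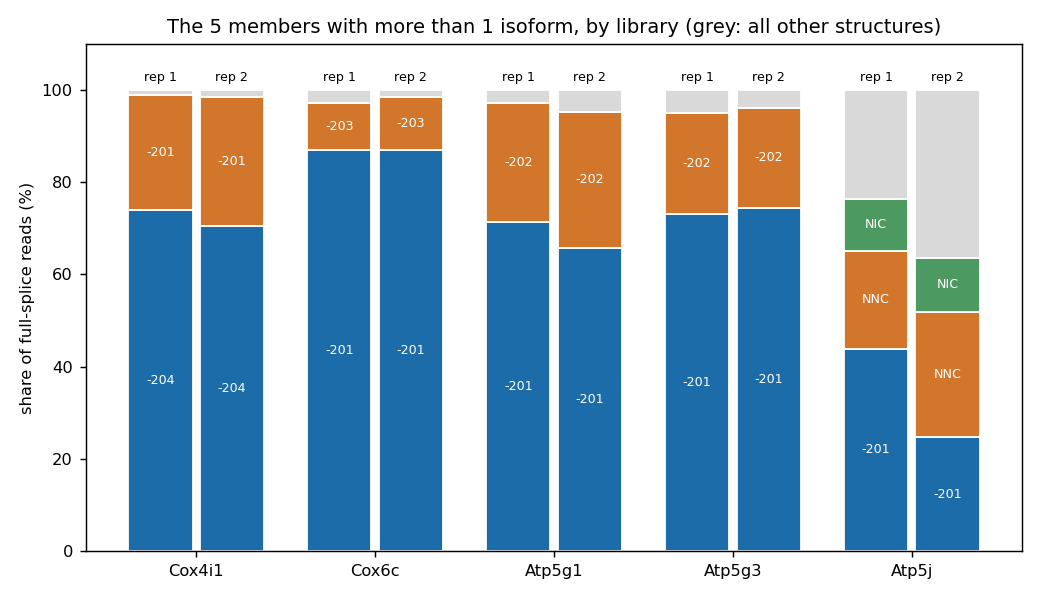
Share of full-splice reads, in percent, held by each isoform at 10% or more in each library, for the 5 members with more than 1 such isoform, with a bar for each replicate. Numbers name annotated transcripts, NIC and NNC are unannotated forms, and grey is every other structure. The leading form holds 65.8% or more except in Atp5j. There Atp5j-201 leads in replicate 1 (43.8%, then 24.7%) and the NNC form in replicate 2 (21.3%, then 27.3%). With incomplete matches added, which are not drawn, that NNC form holds 6.69% and 8.17%. Its models start where those of the leading incomplete match do, and it is drawn only because its splice site is new.

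Atp5g1 used 2 first exons. Atp5g1-201, which starts at chr11:96075670 with an exon of 44 bases, held 71.4% and 65.8% of full-splice reads, and Atp5g1-202, whose first exon of 63 bases starts at chr11:96075619, held 25.7% and 29.4%. In Cox6c, Cox6c-201 held 87.0% and 86.9%, and Cox6c-203, which begins in a longer form of the exon with the start codon, 10.1% and 11.6%. Each of these pairs of values differed by less between the libraries than between the isoforms.

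Atp5g3 used 2 donor sites of its first exon. Atp5g3-201 held 73.2% and 74.5%, and Atp5g3-202, whose donor lies 10 bases further on, 21.7% and 21.6%. The end of that exon is shown with the added bases in capitals (chr2:73911242-73911259, minus strand, mm10):
Atp5g3 end of the first exon: ctcgggagGTAAGCGAAG

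Of these members, Atp5j had the most divided full-splice reads, in forms that differ before the start codon. Atp5j-201 held 39 of 89 full-splice reads in replicate 1 and 19 of 77 in replicate 2. An unannotated form held 19 and 21 reads, and joins the exon with the start codon 5 bases later than annotated, as marked by capitals (chr16:84831490-84831507, minus strand, mm10; the annotated start codon closes the sequence):
Atp5j start of the exon with the start codon: TACAGagactcagccatg

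With incomplete matches added, the form with the later join held 6.69% of the reads in replicate 1 and 8.17% in replicate 2. The leading chain of Atp5j, an incomplete match that joins this exon where annotated, then held 64.8% and 65.0%. Models of both start at chr16:84834832 and lack the first exon of Atp5j-201. The form with the later join counts as full-splice only through its new splice site. Another unannotated form of Atp5j, a new combination of annotated splice sites, held 10 and 9 full-splice reads, and a further one 5 and 7. Few other unannotated forms recurred with at least 5 reads in each library. Atp5b had 9 and 8 reads of a form that keeps an intron, and Cox6b1 had 6 and 7 reads of a form that skips an exon. Both are under 3% of their gene's full-splice reads.

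Atp5c1 is known for a small exon near its end that muscle skips. This ninth exon of 37 bases (chr2:10056770-10056806) was included in 202 reads and skipped in 13 in replicate 1, an inclusion of 94.0% (exact interval 89.9 to 96.7%). In replicate 2 it was included in 186 and skipped in 7, an inclusion of 96.4% (92.7 to 98.5%). The exon changes where the protein ends: with it (Atp5c1-203) the codon GAT comes before the stop, and without it (Atp5c1-201) the stop codon follows directly. The 2 ends are shown with the bases after the junction in capitals (minus strand, mm10):
Atp5c1-203: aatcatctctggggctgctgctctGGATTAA
Atp5c1-201: aatcatctctggggctgctgctctGTAA

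The libraries were then compared gene by gene, which tests them against read-counting error and not one condition against another. A two-sided exact binomial test was run on the 9062 genes with at least 20 reads together, and a gene was called where the p, adjusted over these genes by the Benjamini-Hochberg method, was under 0.05 and the levels differed 2-fold or more. No member of the 38 tested was called, beside 0.309% of all genes, and 9 had an unadjusted p under 0.05, beside 7.42% of all genes. With no limit on the fold, 1 member passed, beside 0.574% of all genes. It was Cox4i1, with 1931 reads in replicate 1 and 1178 in replicate 2, a log2 ratio of -0.56 and an adjusted p of 2.70e-23 by the exact test. Over the alternatives run, its log2 ratio lay between -0.60 and -0.21 and stayed past this threshold. Both of its main transcripts had fewer reads in replicate 2, Cox4i1-204 with 1410 and 821 and Cox4i1-201 with 478 and 324.

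Small differences leaned one way, except under spike-in scaling: by share of reads, 28 of 38 members were lower in replicate 2 and 10 higher, with a median log2 ratio of -0.14, against 0.01 over all tested genes, but scaled to spike-in reads the medians were 0.22 and 0.36 and only 3 members were lower. A change of scaling moves every gene by the same amount, so the members' median necessarily lay below that of all genes in both. Over all tested genes, 49.1% were lower in replicate 2 by share of reads, and 51.3% of those at 100 CPM or more. Within complex IV, 11 of 12 tested genes of the list (Ndufa4 included) were lower in replicate 2 by share of reads and 1 of them, Cox4i1, passed the test at any fold. In complex III and cytochrome c it was 5 of 10. Some of these signs rest on almost equal levels. In complex IV, Cox6a1 and Cox5b counted as lower with log2 ratios of -0.0007 and -0.004. Cox7c, the gene counted as higher, had a ratio of 0.0002. Atp5l, with 222 and 146 reads, and Uqcr11, with 217 and 149, had log2 ratios of -0.45 and -0.39 and adjusted p of 0.22 and 0.43 by the exact test. In the other direction, Uqcrh had 62 and 77 reads and a log2 ratio of 0.46, with an adjusted p of 0.70.

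Transcript length moved with this lean. Among 117 tested genes with reference transcripts under 600 bases, 68.4% were lower in replicate 2 and the median log2 ratio was -0.13, against -0.18 for the 13 members among them. From 600 to 1000 bases, 60.8% of 418 genes were lower, and the medians were -0.08 for these genes and -0.18 for 11 members. From 1000 to 2000 bases the medians were -0.03 for 1831 genes and 0.06 for 11 members. At 2000 bases or more they were 0.03 for 6378 genes and -0.26 for 3 members. These members were Cycs (-0.33), Atp5g1 (-0.26) and Atp5a1 (-0.004). Atp5g1 falls in this class by the annotated last exon of Atp5g1-201, of 4367 bases, which has 229 bases in Atp5g1-202. Which of these ends its reads had was not tested. Of the choroid plexus markers Ttr alone had enough reads to test, with 328 and 176 CPM and an adjusted p of 1.29e-06 by the exact test, under 2-fold. Of 4 tested red blood cell markers, Hba-a2 was called, with 29.0 and 87.2 CPM and an adjusted p of 0.000491 by the exact test, and the other 3 did not pass. The part of length or of these cells in the lean was not tested.

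**Figure D4:**
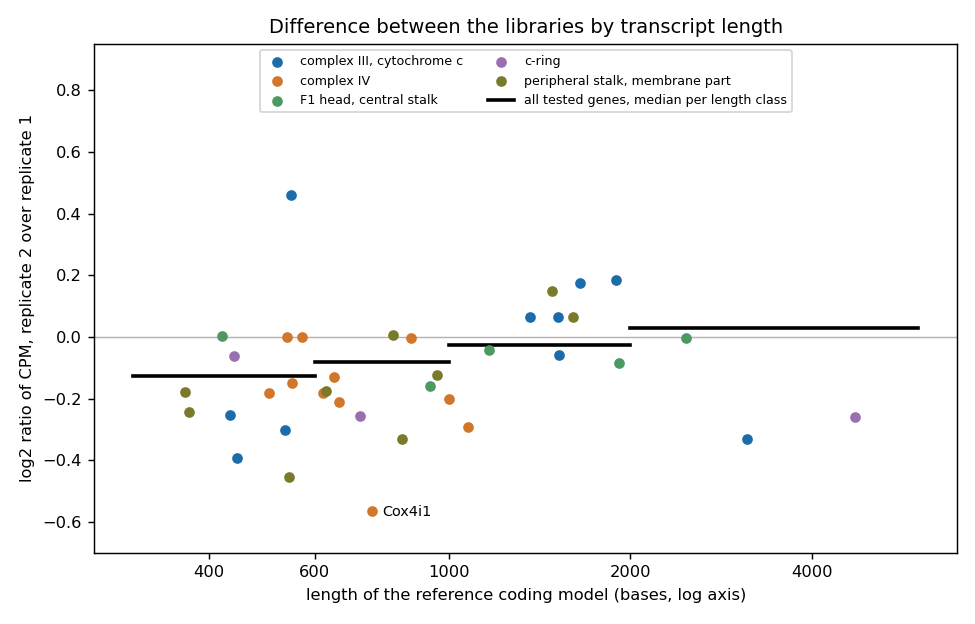
Log2 ratio of CPM, replicate 2 over replicate 1, by share of non-spike-in reads, against the length of the reference coding transcript in bases (log axis) for the 38 tested members, coloured by enzyme part, with black lines at the median of all tested genes in 4 length classes. Most members under 1000 bases lie below 0 and Cox4i1 is lowest at -0.56; scaled to spike-in reads the members' median would be 0.22.

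Isoform shares were compared in the same way. By Fisher's exact test of the leading isoform against the rest, adjusted over 4819 genes, 0 of 36 members passed, beside 0.208% of all genes, and 3 members had an unadjusted p under 0.05, beside 3.65% of all genes. These were Uqcrq (97.9% and 91.2%, adjusted p of 0.28 by the exact test), Atp5j and Cox4i1. A chi-square test over all isoforms of a gene also called 0.

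The class that TALON gave to single-exon reads did differ between the libraries. Uqcrq had 172 such reads in replicate 1 and 170 in replicate 2. All 172 were classed as incomplete in replicate 1, in a model of 198 bases inside its second exon (chr11:53428953-53429150), and all 170 as genomic in replicate 2, in a model drawn over 3626 bases from chr11:53427202 to chr11:53430827. The numbers of reads were close and the labels were not.

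Of 9 members with at least 10 single-exon reads in each library, 6 changed class in this way (80% or more incomplete in a library and 20% or less in the other), against 15.2% of 1411 genes. Besides Uqcrq these were Atp5o, Atp5g1, Uqcr10, Atp5d and Cox4i1. Cox7a2 kept its class, with 86 and 80 genomic reads, all in a model of 46 bases at the end of its last exon (chr9:79755361-79755406).

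With genomic models left out, Uqcrq had a log2 ratio of -0.86 and an adjusted p of 1.79e-11 by the exact test, and Atp5o one of -0.62 with an adjusted p of 0.0038. With all reads counted, their log2 ratios were -0.06 and -0.33, with adjusted p of 0.99 and 0.52. With single-exon incomplete and genomic reads both left out, a setting chosen after the data were seen, they were -0.19 and -0.34 and neither passed. Over all alternatives the adjusted p of the exact test reached from 1.79e-11 to 1 for Uqcrq and from 0.0038 to 0.97 for Atp5o.

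**Figure D5:**
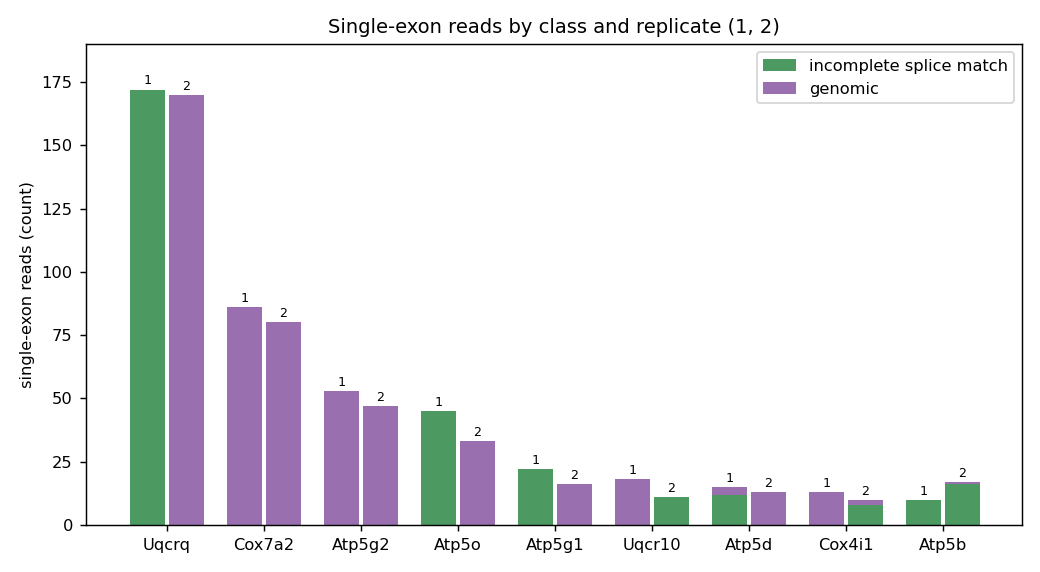
Number of single-exon reads of the 9 members with at least 10 in each library, by replicate (1 and 2 above the bars), divided into incomplete splice matches and genomic models. Uqcrq has the tallest bars, 172 and 170 reads, and the colour switches between the replicates in 6 of the 9 genes.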

How the data were processed

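The authors deposited whole-number read counts per transcript model for each of 2 libraries, with no normalization, and model structures with positions on mm10; the deposited structure files name TALON as the source of new models, and the deposited text files name GENCODE M21. No source used here names the aligner, the platform or a version. The authors' tables also list, for every model, its exons and its length in bases. How reads of near-identical copies or overlapping genes were treated is not given.

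Counts were summed per annotated gene identifier over all models, and CPM taken per 1000000 reads outside spike-ins. Known, NIC and NNC models (annotated, new combinations of annotated splice sites, new splice sites) are full-splice. Models were joined across libraries by their introns, and isoforms need 20 full-splice reads in each library. Log2 ratios add 0.5 to each count. The reference transcript of a gene is its principal coding transcript in GENCODE M21. Intervals are exact 95% Clopper-Pearson intervals. No molecular identifiers are named, so intervals, limits for a count of 0 (3 counts) and p-values cover counting error only. With 1 group, edgeR and DESeq2 served only to give scaling factors on the deposited counts.

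The members, gene lists and tests were chosen with earlier results of these data known. Values are given for every member in the lists with at least 20 reads together. Isoforms are given for members with a second isoform of 10% or a leading unannotated one, for the 5 with most full-splice reads, and for unannotated isoforms with 5 reads in each library. Both tests were checked on simulated data. Alternatives changed the classes counted, the scaling, the read minimum, the fold, the pseudocount and the isoform rules, and left out each replicate. Python 3.11.15, pandas 2.3.3, numpy 2.4.6, scipy 1.17.1, R 4.3.3, edgeR 4.0.16 and DESeq2 1.42.0 were used.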

Additional observations from a re-analysis of the deposited data

Results flagged for a closer look

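Models on the strand opposite to a member and overlapping its exons held more than 3 reads in each library, the number that a count of 0 allows, at 3 members. The overlap is that of the drawn model and not of each read. These models entered no comparison above. Over Atp5g2 there were 22 such reads in replicate 1 and 17 in replicate 2, or 27.5% and 24.6% of its sense reads, in single-exon models drawn over 7055 and 7727 bases that run across the gene, one beginning inside its last exon and the other past the annotated end of the gene. Over Atp5l there were 9 and 5 reads, of which 8 and 5 lay in a model of 2181 bases that meets its second exon at the edge alone. Over Cox7a2 there were 7 and 5 reads, across the last exons of the gene. No source used here says whether the protocol kept strand.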

How the results depend on the processing

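The number of members detected in both libraries (39 to 41), the number at 100 CPM or more (33 to 35), and the counts of 0 for library and isoform differences kept their values or stayed within 1.5 times of them under every alternative run, except that 1 member (Cox4i1) differed between libraries without a fold limit. Without that limit, 3 members passed when genomic models were left out (1.24% of all tested genes) and 13 with spike-in scaling (10.9%), while with it the calls over all genes ranged from 13 to 214, against 28. Counting full-splice models alone, with their own sum as the total, put the median member at 318 CPM instead of 239.9, and with all non-spike-in reads as the total, a setting added after the data were seen, at 208 (217 and 263 with either replicate left out). The median log2 ratio turned to 0.22 with spike-in scaling, as did the ratios of Uqcrq (0.30) and Atp5o (0.025), and was -0.023 for members with reference transcripts of 1000 bases or more, a choice made after the data were seen. The median leading isoform share was 92.9% with incomplete matches added and 98.1% by identifiers of annotated models (96.2% and 97.0% with either replicate left out). At a 5% limit, 8 members had more than 1 isoform. The full-splice share was 87.2% without models under 50 bases. In the c-ring, leaving out genomic models or counting full-splice models alone gave Atp5g1 62.9% and 65.6%, Atp5g2 5.35% and 5.37%, and Atp5g3 31.8% and 29.0%. No paired analysis was possible because there is a single group with 1 library per replicate number. The depth does not resolve members under about 4 CPM.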
